A study of Homo sapiens with 12 samples.

Results

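The genes described here are 35 genes of homologous recombination, of the Fanconi anaemia pathway and of the ATR checkpoint that works with them. They were the rows of the deposited count table whose gene name was on the list, and every one of the 35 had exactly 1 row among the 63241 genes of that table. Expression was measured by poly(A) RNA sequencing in ONS76 and DAOY, established human medulloblastoma cell lines that the labels call wild type. Each line was compared under fluid shear stress (FSS) and in static culture, and the question is what FSS changed in each line. The groups were ONS76 under FSS, static ONS76, DAOY under FSS and static DAOY, with 3 biological replicates each and 12 libraries in all. Both FSS and static cells were kept in aCSF, FSS cells in 6-well plates on an orbital shaker at 100 rpm, and RNA was taken after 18 h. Each group comes from 1 cell line, and what shear did cannot be told apart from any other effect of the shaker. The sources used here do not say how the replicate cultures were kept apart, so the tests below rest on library-to-library spread, part of which may be technical. In bulk RNA, fewer cells of a kind and less RNA per cell cannot be told apart.

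Homologous recombination repairs a broken or stalled chromosome by copying from the sister chromatid. Nucleases trim the ends to single strands, BRCA1 with its partners and BRCA2 load the strand-exchange recombinase onto them, and paralogues and motor proteins help that filament invade the sister, after which helicases and nucleases undo the joined molecules. The Fanconi pathway handles crosslinked DNA at replication forks: a nuclear core complex attaches ubiquitin to the FANCD2 and FANCI pair, which directs incision and then recombination. ATR, with its partner ATRIP and its activator TOPBP1, senses single-stranded DNA and signals through the kinase CHEK1. Many of these genes are transcribed mainly from late G1 to G2, when a sister chromatid is made or present.

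Of the 35 genes, 33 had enough counts to be tested and 2, RAD50 and RAD51D, had 0 counts in all 12 libraries. Where a gene is called, edgeR's quasi-likelihood test gave an adjusted p under 0.05 after Benjamini-Hochberg correction over all 19631 tested genes, and a log2 fold change of FSS over static is positive where FSS was higher. Among the called members, the largest falls under FSS in both lines were in RAD51AP1 and BRIP1, and the largest rise was in FANCB.

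Promoters are shown because many members fell together, so that the promoters of the members that fell most can be read beside those of members not called lower. RefSeq (GRCh38.p14) gives a 300-base promoter, 250 bases before to 50 bases after the start, for 32 of the 35 members, all but FANCI, NBN and RAD54B. The first 4 below belong to the members with the largest mean fall over both lines among those with an entry. RAD51C and ATR had mean changes nearest to 0. FANCB, which was called higher in both lines, was added after its values were seen. Capitals mark the motifs searched on both strands, which here all lie on the reverse strand: GCGGGAA is TTCCCGC reversed, ATTGG is the CCAAT box (CCAAT), and TTCAAA is TTTGAA, the CHR element of cell-cycle genes.
RAD51AP1 (chr12:4538640-4538939, plus strand): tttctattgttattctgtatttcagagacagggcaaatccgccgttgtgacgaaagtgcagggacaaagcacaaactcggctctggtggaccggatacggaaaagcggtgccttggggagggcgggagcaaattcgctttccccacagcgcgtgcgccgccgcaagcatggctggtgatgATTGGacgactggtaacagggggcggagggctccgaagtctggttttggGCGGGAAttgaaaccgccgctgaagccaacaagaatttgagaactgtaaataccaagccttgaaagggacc
BRIP1 (chr17:61863479-61863778, minus strand): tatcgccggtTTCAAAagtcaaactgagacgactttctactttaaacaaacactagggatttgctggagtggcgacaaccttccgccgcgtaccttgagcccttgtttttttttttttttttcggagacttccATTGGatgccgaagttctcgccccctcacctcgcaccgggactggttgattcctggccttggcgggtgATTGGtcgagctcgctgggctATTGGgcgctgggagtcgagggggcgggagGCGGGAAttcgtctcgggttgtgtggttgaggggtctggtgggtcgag
XRCC2 (chr7:152676092-152676391, minus strand): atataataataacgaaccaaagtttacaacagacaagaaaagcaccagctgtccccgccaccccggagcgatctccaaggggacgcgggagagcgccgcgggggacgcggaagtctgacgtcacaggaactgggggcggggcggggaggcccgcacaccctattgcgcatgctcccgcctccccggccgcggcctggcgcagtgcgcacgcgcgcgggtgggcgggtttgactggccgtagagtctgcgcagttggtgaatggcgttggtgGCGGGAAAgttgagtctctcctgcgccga
FANCD2 (chr3:10026187-10026486, plus strand): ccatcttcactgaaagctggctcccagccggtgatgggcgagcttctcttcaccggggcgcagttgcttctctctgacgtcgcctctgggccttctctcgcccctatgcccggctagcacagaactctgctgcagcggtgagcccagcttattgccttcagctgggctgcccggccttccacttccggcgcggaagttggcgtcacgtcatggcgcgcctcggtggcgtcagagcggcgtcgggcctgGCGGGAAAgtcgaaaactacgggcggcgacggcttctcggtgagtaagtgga
RAD51C (chr17:58692323-58692622, plus strand): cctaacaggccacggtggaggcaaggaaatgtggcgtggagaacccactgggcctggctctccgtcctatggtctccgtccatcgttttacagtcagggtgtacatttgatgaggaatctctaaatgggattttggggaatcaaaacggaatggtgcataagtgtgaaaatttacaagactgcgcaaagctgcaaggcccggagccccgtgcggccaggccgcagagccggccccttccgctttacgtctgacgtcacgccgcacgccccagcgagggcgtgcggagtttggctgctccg
ATR (chr3:142578684-142578983, minus strand): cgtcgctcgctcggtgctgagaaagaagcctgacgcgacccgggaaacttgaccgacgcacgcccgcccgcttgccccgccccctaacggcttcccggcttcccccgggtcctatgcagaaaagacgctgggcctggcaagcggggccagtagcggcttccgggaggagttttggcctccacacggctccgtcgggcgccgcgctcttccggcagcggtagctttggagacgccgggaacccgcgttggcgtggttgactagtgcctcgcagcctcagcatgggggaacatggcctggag
FANCB (chrX:14873020-14873319, minus strand): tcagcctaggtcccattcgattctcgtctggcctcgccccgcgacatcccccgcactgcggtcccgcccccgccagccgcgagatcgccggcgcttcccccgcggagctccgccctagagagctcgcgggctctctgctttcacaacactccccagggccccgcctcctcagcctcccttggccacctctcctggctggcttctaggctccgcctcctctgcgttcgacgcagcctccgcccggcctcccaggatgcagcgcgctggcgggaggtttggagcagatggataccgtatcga

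The short E2F form TTCCCGC, chosen after these 7 promoters had been read, sits close to the start in the first 4 and is in none of the other 3. Its first base lies 21 bases before the start in RAD51AP1, 2 bases after it in BRIP1, 21 bases after it in XRCC2 and 2 bases before it in FANCD2. The E2F motif was first searched as TTTCCCGC, TTTGGCGC, TTTCGCGC or TTTGCCGC, which 6 of 32 member promoters held (18.8%: EXO1, FANCD2, TOPBP1, XRCC2, FANCC and FANCA), against 3.33% of 27305 promoters in the table and 4.79% of those of 12731 tested genes that are no members. The shorter TTCCCGC, which is part of TTTCCCGC, was searched only after the promoters had been read, and was held by 13 of 32 member promoters (40.6%), against 6.56% of all and 9.35% of the other tested genes. BRCA1, BRCA2, PALB2, FANCA, EXO1, RBBP8, MRE11, CHEK1, ATRIP and TOPBP1, all called lower in both lines, lack it. XRCC3, called in neither line, holds it. CCAAT was in 13 member promoters (40.6%), against 35.7% of all promoters, and TTTGAA was in 2, FANCC and BRIP1 (6.25%), against 15.4% of all. Among tested members with an E2F motif of the first kind, 6 of 6 were called lower in DAOY and 5 of 6 in ONS76, and among the 24 without one, 14 were called lower in each line, beside 20.1% of all tested genes in DAOY and 13.9% in ONS76. With the shorter form, 8 of 12 tested members that hold it and 11 of 18 that lack it were called lower in ONS76, and 10 of 12 and 10 of 18 in DAOY. This last split counts the 7 promoters from which the shorter form was chosen, and those were picked by their members' responses. It therefore cannot show whether the shorter form goes with a fall. These matches describe letters in a 300-base window and are no measure of binding.

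Library totals ran from 41369030 to 45416743 counts in ONS76 FSS, 39370131 to 49282743 in static ONS76, 39196449 to 44651210 in DAOY FSS and 38090231 to 40995642 in static DAOY. The tested genes held 99.96% of all counts, and the common biological coefficient of variation was 4.87%. The lines differed in the markers of their own lineage: of 12 medulloblastoma and granule lineage genes, 3 reached 1 TPM in all 3 ONS76 libraries of either condition, against 8 in DAOY FSS and 7 in static DAOY libraries, and SOX2 and NEUROD1 were at 0 in all 12. Cardiac myosin transcripts stood apart in ONS76: MYH6 was at 15.0 and 6.21 TPM and MYH7 at 9.17 and 3.26 TPM in static replicates 1 and 2, and each was at most 0.199 TPM in the other 10 libraries. The 8 cardiac muscle genes summed to 1.5 to 1.84 TPM in ONS76 FSS and 1.73 to 25.3 TPM in static ONS76 libraries, with TNNT2 at 0 in all. ONS76 results on the members are therefore also given without those 2 libraries where that ends a call. A fibroblast list summed to 2620 to 2830 TPM in DAOY FSS and 2280 to 2560 TPM in static DAOY libraries, against at most 1.8 TPM in ONS76. Collagens made up nearly all of it: in static DAOY replicate 1, COL1A1 was at 1600, COL3A1 at 521 and COL1A2 at 386 TPM. DCN, LUM and PDGFRB were at 0.943, 3.43 and 12.9 TPM there. An endothelium list summed to 21.7 to 23.8 TPM in ONS76 FSS and 15.3 to 15.8 TPM in static ONS76, mostly CDH5 and PECAM1. In DAOY it summed to 6.85 to 8.53 TPM under FSS and 3.25 to 4.46 TPM in static libraries. A glia list, mostly MBP in ONS76, summed to 12.6 to 14.4 TPM in ONS76 libraries and at most 1.55 TPM in DAOY. A leukocyte list summed to at most 0.279 TPM anywhere. The part of these markers in the results was not tested.

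Most of the repair genes were lower under FSS in both lines, by small amounts for all but a few. In ONS76, 20 of 33 tested members fell and 1 rose, with a median log2 change of -0.24, against 13.9% of all 19631 genes lower and 14.1% higher and a median of 0.00. In DAOY, 22 fell and 2 rose, with a median of -0.26, against 20.1% of all genes lower and 19.5% higher and again a median of 0.00. The shares of members called lower were 60.6% in ONS76 and 66.7% in DAOY. Summed over the members, expression was 491 to 509 TPM in ONS76 FSS, against 560 to 587 TPM in static ONS76 libraries, and 655 to 695 TPM in DAOY FSS, against 818 to 845 TPM in static DAOY libraries. These sums do not overlap in either line. Single libraries of the 2 conditions still overlapped in TPM for MRE11 and CHEK1 in ONS76 and for PALB2 and FANCL in DAOY, all of them called lower there.

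**Figure D1:**
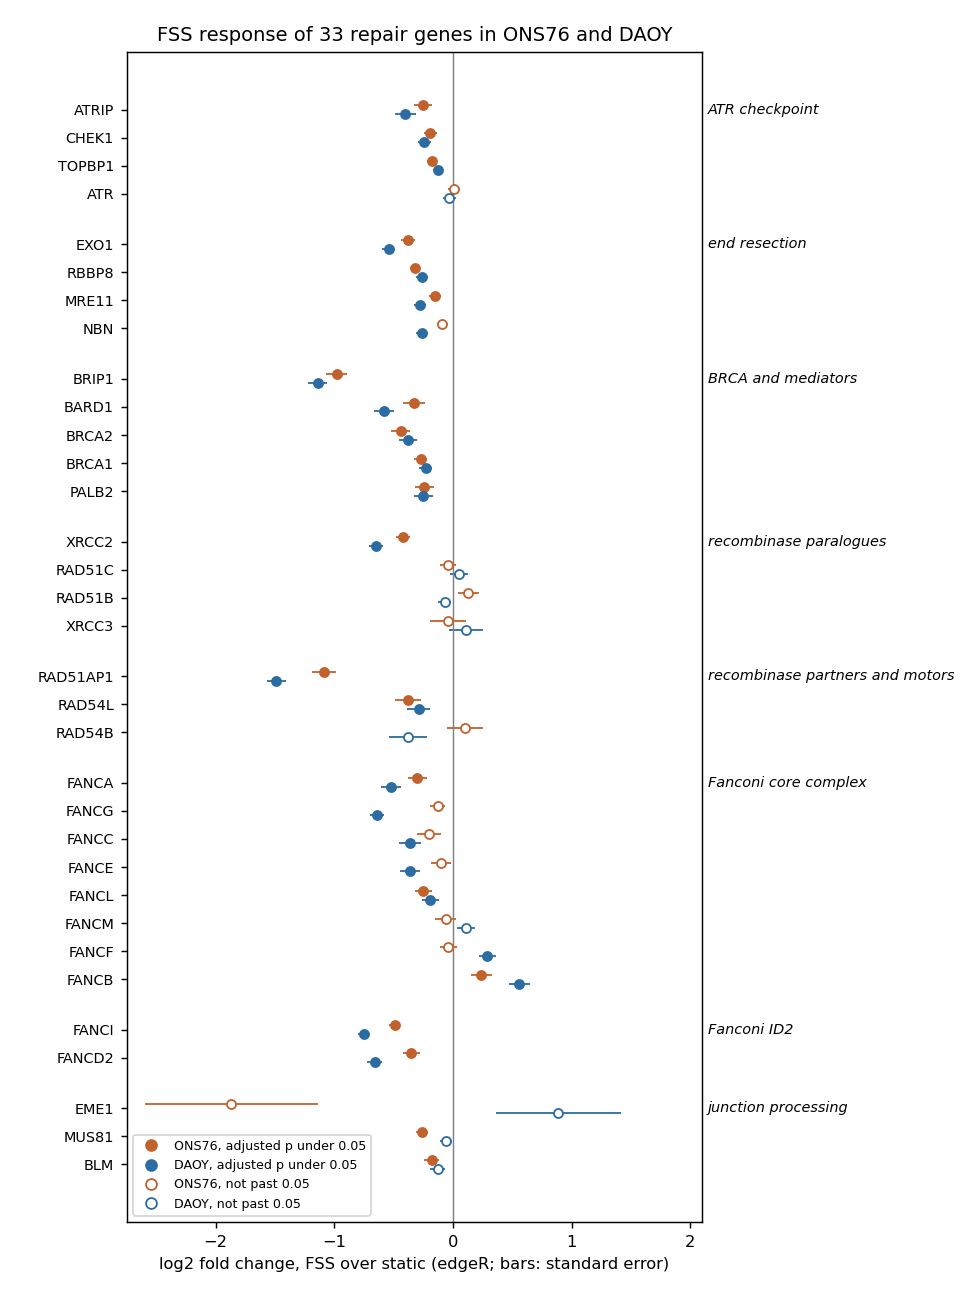
Log2 fold change of FSS over static (x axis) for the 33 tested members in ONS76 (orange) and DAOY (blue), grouped by role, with edgeR standard errors as bars and filled points for adjusted p under 0.05. Filled points lie left of 0 for 20 members in ONS76 and 22 in DAOY, and right of 0 only for FANCB in both lines and FANCF in DAOY.

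The same 18 members fell in both lines: RAD51AP1, XRCC2, BRCA1, BRCA2, BARD1, BRIP1, PALB2, RAD54L, FANCA, FANCD2, FANCI, FANCL, EXO1, RBBP8, MRE11, CHEK1, ATRIP and TOPBP1. The size of the fall differed between the lines by a test for 4 of them, RAD51AP1, XRCC2, FANCD2 and FANCI, each with the larger fall in DAOY. BLM and MUS81 were called lower in ONS76 and missed the threshold in DAOY, and FANCC, FANCE, FANCG and NBN were called lower in DAOY and missed it in ONS76. Of these 6 the test of the difference called FANCG and none of the others (adjusted p = 0.796 for BLM, 0.0627 for MUS81, 0.496 for FANCC, 0.116 for FANCE and 0.0698 for NBN). The other 7 members, RAD51B, RAD51C, XRCC3, RAD54B, FANCM, ATR and EME1, were called in neither line. Across 32 members, leaving out the scarcely counted EME1, the log2 changes in the lines had a Pearson r of 0.86, and with EME1 the r over 33 was 0.16. This is a description across genes, which are not independent replicates. In DAOY, 21 of the 24 calls held under each alternative processing and with any 1 library left out, the exceptions being PALB2, RAD54L and FANCL. In ONS76, 10 of 21 calls held throughout (RAD51AP1, XRCC2, BRCA1, BRCA2, BRIP1, FANCD2, FANCI, EXO1, RBBP8 and TOPBP1). Without static replicates 1 and 2, 11 members were called lower in ONS76 and 0 higher, with 1818 genes lower and 1558 higher over the whole table. In that fit 1 static library makes up its group, with its spread taken to match that of the other groups.

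RAD51AP1 (ENSG00000111247, chromosome 12, 4538798 to 4560048 in GRCh38), which helps the recombinase filament pair with its partner strand, showed the largest fall among called members in both lines. In ONS76 it stood at 5.75, 5.24 and 6.51 TPM under FSS, against 13.2, 11.1 and 12.3 TPM in static libraries. In DAOY it stood at 22.6, 25.5 and 22.7 TPM under FSS, against 70.0, 61.5 and 67.2 TPM in static libraries. Every FSS library of a line was thus below every static one, and the fall was by 1.09 (SE 0.10) on the log2 scale in ONS76 and by 1.49 (SE 0.080) in DAOY, with adjusted p of 5.64e-10 and 7e-16. RAD54L, a DNA motor that remodels the joined strands, averaged 5.47 ± 0.0659 TPM under FSS against 7.02 ± 0.322 TPM in static ONS76, and 7.90 ± 0.324 TPM against 9.65 ± 0.979 TPM in DAOY (SD, n = 3 each). Both falls were called, at -0.38 (SE 0.11) and -0.29 (SE 0.10). The DAOY call was lost without FSS replicate 2 (adjusted p = 0.089), static replicate 1 (0.0522) or static replicate 2 (0.143), with adjusted p from 0.0121 to 0.143 over its alternatives, and the ONS76 call without static replicates 1 and 2 (0.0528, with 0.00338 to 0.0528 over its alternatives). Its relative RAD54B was called in neither line, at 0.10 (SE 0.15) in ONS76 and -0.38 (SE 0.16, adjusted p = 0.0513) in DAOY. The DAOY fall of RAD54B was called in 7 alternatives, among them DESeq2 (adjusted p = 0.0489) and DAOY fitted alone (0.0426), with 0.0388 to 0.202 over its alternatives.

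All 5 genes of the BRCA and mediator group fell in both lines, where 13.9% (ONS76) and 20.1% (DAOY) of all tested genes were lower. BRIP1 (ENSG00000136492, chromosome 17, 61681266 to 61863521), a helicase that binds BRCA1 and is also a Fanconi gene, had the largest change of the 5: 2.14, 1.94 and 2.16 TPM in ONS76 FSS libraries, against 4.26, 4.00 and 3.76 TPM in static ONS76 libraries. In DAOY it was at 3.78, 4.54 and 3.81 TPM under FSS, against 8.45, 9.65 and 8.70 TPM in static libraries. The groups are wide apart in both lines, with log2 changes of -0.98 (SE 0.087, adjusted p = 2.15e-10) and -1.14 (SE 0.080, adjusted p = 3.2e-13). BRCA2, which loads the recombinase, was lower in every FSS library, at 2.45, 2.25 and 2.43 TPM against 2.98, 3.42 and 3.13 TPM in static ONS76, and 4.76, 5.49 and 4.78 TPM against 6.13, 6.90 and 6.59 TPM in static DAOY. Its changes of -0.44 (SE 0.082) and -0.38 (SE 0.075) were of like size in the lines, with a difference of 0.06 (SE 0.11). BRCA1, the ubiquitin ligase and scaffold that promotes end trimming, changed by -0.27 (SE 0.054) in ONS76 and -0.23 (SE 0.054) in DAOY, with 17.5, 16.5 and 16.6 TPM in ONS76 FSS libraries against 19.3, 20.5 and 20.2 TPM in static ONS76. Its means in DAOY were 18.4 ± 1.77 TPM under FSS and 21.7 ± 1.19 TPM in static libraries (SD, n = 3 each). BARD1, its obligate partner, fell by 0.33 (SE 0.092) in ONS76 and by 0.58 (SE 0.085) in DAOY on the log2 scale. With limma on log2(TPM + 1) the ONS76 call of BARD1 was just lost (adjusted p = 0.0504). The ONS76 call of BARD1 was lost without static replicates 1 and 2 (adjusted p = 0.176, with 0.00252 to 0.176 over its alternatives). PALB2, which joins BRCA1 to BRCA2, fell by 0.24 (SE 0.079) and by 0.25 (SE 0.081). With limma PALB2 lost its ONS76 call on log2(TPM + 1) and log2(TPM + 0.1) (adjusted p = 0.111 and 0.109). On log2(TPM + 0.1) PALB2 also lost its DAOY call (0.0512). Its ONS76 call was lost without FSS replicate 1 or 2 or static replicate 2 or 3 (adjusted p = 0.0584 to 0.0844) and without static replicates 1 and 2 together (0.0861), with 0.00788 to 0.111 over its alternatives, and its DAOY call without FSS replicate 1 (0.11) or static replicate 3 (0.0764), with 0.00356 to 0.11 over its alternatives.

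**Figure D2:**
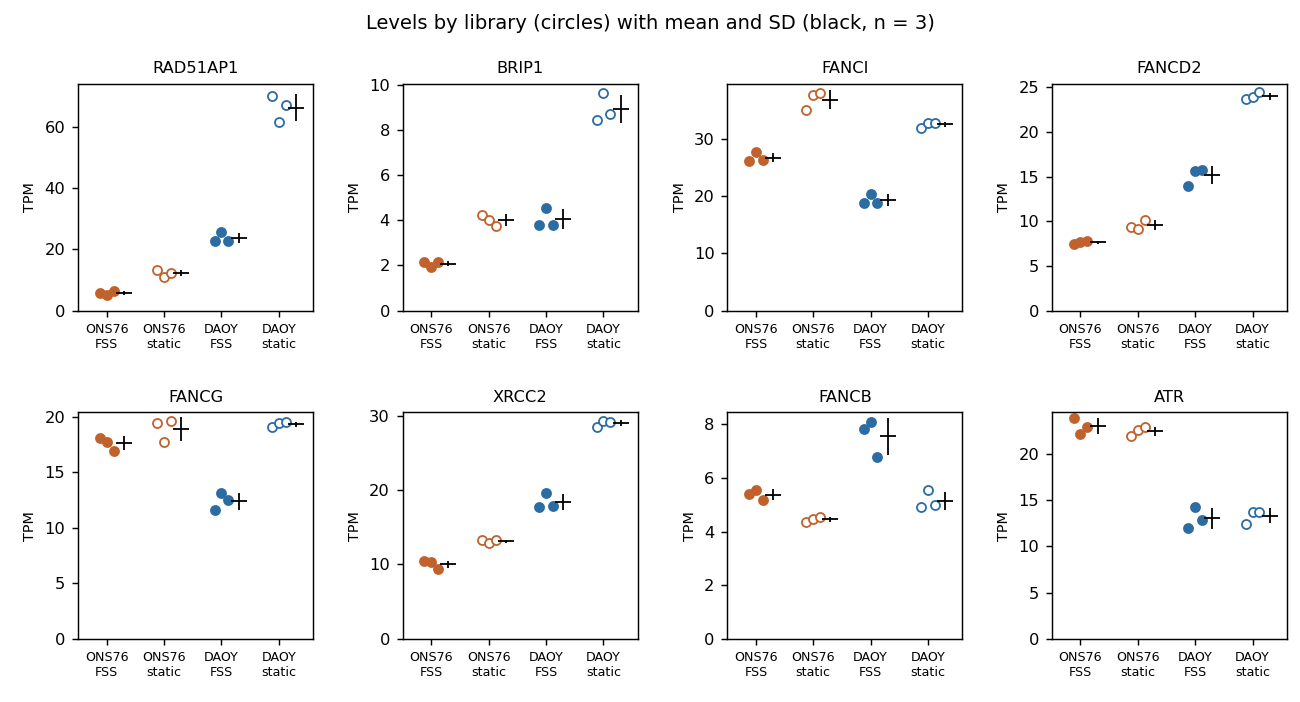
TPM (y axis, from 0) of 8 members in each library, as filled circles under FSS and open circles in static culture, with the mean and SD of 3 libraries in black, ONS76 in orange and DAOY in blue. RAD51AP1 averages 5.83 TPM in ONS76 FSS against 12.2 in static ONS76 and 23.6 in DAOY FSS against 66.2 in static DAOY, while FANCB is higher under FSS and ATR overlaps in both lines.

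The recombinase paralogues steady the filament, and 4 were tested, where 13.9% (ONS76) and 20.1% (DAOY) of all tested genes were lower. Only XRCC2 of the 4 was called. It fell in both lines, with 10.4, 10.3 and 9.45 TPM in ONS76 FSS libraries against 13.3, 12.9 and 13.3 TPM in static ONS76, and 17.7, 19.6 and 17.8 TPM in DAOY FSS against 28.5, 29.3 and 29.2 TPM in static DAOY. No FSS library reached a static one, and the log2 changes were -0.42 (SE 0.062, adjusted p = 3.56e-06) in ONS76 and -0.65 (SE 0.057, adjusted p = 6.31e-11) in DAOY. RAD51B was at 0.13 (SE 0.086) and -0.07 (SE 0.058), RAD51C at -0.04 (SE 0.070) and 0.05 (SE 0.078), and XRCC3 at -0.04 (SE 0.15) and 0.11 (SE 0.14), all with overlapping libraries in both lines. For XRCC3, 76.7% of exon bases overlap the gene KLC1 on the other strand. RAD51D, the partner of XRCC2, was listed at 0 in every library, where 3 counts would be 0.0609 to 0.0788 CPM (counts scaled by library size). Of its exon bases 8.01% overlap the readthrough gene RAD51L3-RFFL, itself at 2 to 26 counts.

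In the Fanconi pathway the substrates FANCI and FANCD2 fell in both lines, and the core complex was mixed. FANCI was at 26.1, 27.7 and 26.3 TPM in ONS76 FSS libraries, against 34.9, 37.6 and 38 TPM in static ONS76, and at 18.7, 20.4 and 18.7 TPM in DAOY FSS, against 31.9, 32.8 and 32.8 TPM in static DAOY. FANCD2 was at 7.49, 7.68 and 7.80 TPM in ONS76 FSS, against 9.37, 9.16 and 10.2 TPM in static ONS76, and at 14.0, 15.6 and 15.8 TPM in DAOY FSS, against 23.7, 23.9 and 24.5 TPM in static DAOY. Neither gene's groups overlap in either line. FANCI fell by 0.49 (SE 0.047) and by 0.75 (SE 0.049) and FANCD2 by 0.35 (SE 0.070) and by 0.66 (SE 0.064) on the log2 scale, in ONS76 and in DAOY.

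Of the 8 core complex genes, 2 fell and 1 rose in ONS76, where 13.9% of all tested genes were lower and 14.1% higher. In DAOY 5 fell and 2 rose, where 20.1% of all tested genes were lower and 19.5% higher. FANCA, a scaffold of the complex, fell by 0.30 (SE 0.080) in ONS76 and by 0.52 (SE 0.083) in DAOY, and the ubiquitin ligase subunit FANCL by 0.25 (SE 0.072) and by 0.19 (SE 0.069). Both ONS76 calls were lost without static replicates 1 and 2 (adjusted p = 0.103 for FANCA and 0.215 for FANCL, with 0.0013 to 0.103 and 0.00455 to 0.215 over their alternatives). The DAOY call of FANCL was lost without FSS replicate 1 or 3 or static replicate 2 or 3 (adjusted p = 0.0728 to 0.11, with 0.00586 to 0.11 over its alternatives). With all libraries kept, that call was also lost with upper-quartile factors (edgeR adjusted p = 0.0609). It was lost too with limma on log2(TPM + 1) (0.0856) and on log2(TPM + 0.1) (0.103). In ONS76, limma on the same scales also lost the calls of FANCA (adjusted p = 0.0596 and 0.0617) and FANCL (0.0921 and 0.0831). FANCC and FANCE, which link the complex to its substrate, were called in DAOY, each at -0.36 (SE 0.093 and 0.082), and not in ONS76, at -0.20 (SE 0.10) and -0.10 (SE 0.084). FANCG (ENSG00000221829, chromosome 9, 35073835 to 35080016), an adaptor of FANCA, had 18.1, 17.7 and 16.9 TPM in ONS76 FSS libraries, against 19.4, 17.7 and 19.6 TPM in static ONS76, which overlap. In DAOY it had 11.6, 13.1 and 12.5 TPM under FSS, against 19.1, 19.4 and 19.5 TPM in static libraries, with no overlap, and it fell by 0.64 (SE 0.062, adjusted p = 5.9e-10). In ONS76 its change of -0.13 (SE 0.060) missed the threshold (adjusted p = 0.10), and passed it without static ONS76 replicate 2 (0.0305). FANCM, the helicase that brings the complex to DNA, was at -0.06 (SE 0.090) and 0.11 (SE 0.078) and was called in neither line.

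FANCB and FANCF rose. FANCB (ENSG00000181544, chromosome X, 14835961 to 14873069), part of the catalytic module with FANCL, stood at 5.41, 5.56 and 5.18 TPM in ONS76 FSS libraries, against 4.35, 4.49 and 4.55 TPM in static ONS76. In DAOY it stood at 7.84, 8.08 and 6.78 TPM under FSS, against 4.92, 5.54 and 5.01 TPM in static libraries. All FSS libraries were above the static ones, with log2 changes of 0.24 (SE 0.090, adjusted p = 0.0392) in ONS76 and 0.56 (SE 0.088, adjusted p = 5.02e-06) in DAOY. The DAOY rise kept its call in all 23 alternatives, whereas the ONS76 rise lost it in 10, among them each fit without 1 of the 6 ONS76 libraries (adjusted p = 0.0556 to 0.129) and that without static replicates 1 and 2 (0.294), with 0.0249 to 0.294 over its alternatives. FANCF, an adaptor within the core complex, had 27.9, 29.7 and 27.1 TPM in DAOY FSS libraries, against 22.2, 23.6 and 23.7 TPM in static DAOY, and rose by 0.29 (SE 0.071, adjusted p = 0.00138). Its ONS76 libraries overlapped, at 18.8, 18.5 and 21.4 TPM under FSS against 17.7, 20.2 and 21.5 TPM in static culture, with a change of -0.04 (SE 0.072).

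Of the 4 tested end trimming genes, 3 fell in ONS76 and 4 in DAOY, against 13.9% and 20.1% of all tested genes. The largest fall in both lines was in EXO1. This long-range nuclease had 18.0, 16.4 and 17.2 TPM in ONS76 FSS libraries, against 20.6, 23.3 and 22.0 TPM in static ONS76, and 32.1, 34.3 and 34.3 TPM in DAOY FSS, against 49.1, 50.3 and 47.6 TPM in static DAOY. The groups do not overlap, and the log2 changes were -0.38 (SE 0.058, adjusted p = 5.36e-06) and -0.54 (SE 0.054, adjusted p = 7.05e-10). RBBP8, which encodes CtIP and starts trimming with MRE11, fell by 0.32 (SE 0.046) in ONS76 and by 0.26 (SE 0.048) in DAOY. The nuclease MRE11 fell by 0.15 (SE 0.051) and by 0.28 (SE 0.050), and its partner NBN was called in DAOY, at -0.26 (SE 0.048), and not in ONS76, at -0.09 (SE 0.045). With all libraries kept, the ONS76 call of MRE11 was lost with no filter (edgeR adjusted p = 0.0538). Limma on log2(TPM + 1) (0.135) and on log2(TPM + 0.1) (0.127) lost it too. The ONS76 call of MRE11 was lost without FSS replicate 2 (adjusted p = 0.122) or 3 (0.0757), without static replicate 1 (0.144) or 2 (0.0791) and without static replicates 1 and 2 together (0.476), with 0.0171 to 0.476 over its alternatives. RAD50, the third subunit of that complex, was at 0 counts in every library. Of its annotated exon bases 79.7% overlap the same-strand gene AC116366.3, which had 12 to 28 counts, so its 0 is not read here as absence of the transcript. Library preparation was directional, but whether the counting used strand, and how it treated shared bases, is not given in the sources used here. Values are therefore uncertain for other members that share exon bases with a neighbour. On the same strand these are RAD54B with FSBP (59.1%) and ATRIP with TREX1 (27.9%). On the other strand they are RAD54L with LRRC41 (25.1%), FANCA with ZNF276 (23.6%) and FANCL with VRK2 (18.7%). MUS81 with CFL1 (13.9%) and FANCF with GAS2 (11.3%) also overlap there, as does ATR (16.4%) with the pseudogene AC109992.1, at 0 counts throughout.

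Of the 4 checkpoint genes, 3 fell in both lines and ATR itself was called in neither. Among all tested genes, 13.9% were lower in ONS76 and 20.1% in DAOY. ATRIP had 16.5, 15.5 and 15.0 TPM in ONS76 FSS libraries, against 18.5, 18.0 and 18.2 TPM in static ONS76, and 7.89, 6.33 and 6.77 TPM in DAOY FSS, against 8.49, 8.90 and 10.3 TPM in static DAOY. Its FSS libraries were below its static ones throughout, at -0.25 (SE 0.075, adjusted p = 0.0118) and -0.40 (SE 0.086, adjusted p = 0.000355). CHEK1 changed by -0.19 (SE 0.058) and -0.24 (SE 0.053) and TOPBP1 by -0.18 (SE 0.038) and -0.13 (SE 0.037), all called. With limma, the ONS76 calls of ATRIP and CHEK1 were lost on log2(TPM + 1) (adjusted p = 0.0864 and 0.0707). They were also lost on log2(TPM + 0.1) (0.0973 and 0.0683). The ONS76 call of ATRIP was lost without static replicate 1 (adjusted p = 0.0577) and without static replicates 1 and 2 (0.135), with 0.00131 to 0.135 over its alternatives, and that of CHEK1 without FSS replicate 2 (0.115) or static replicate 3 (0.0806), with 0.0043 to 0.115. ATR was at 23.8, 22.1 and 22.9 TPM in ONS76 FSS libraries against 21.9, 22.5 and 22.9 TPM in static ONS76, and at 12.0, 14.2 and 12.8 TPM in DAOY FSS against 12.4, 13.7 and 13.7 TPM in static DAOY. Those values overlap, at log2 changes of 0.01 (SE 0.050) and -0.03 (SE 0.055).

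Of the 3 junction processing genes, 2 fell in ONS76 and 0 in DAOY. The shares lower, 66.7% and 0.0%, compare with 13.9% and 20.1% of all tested genes. MUS81, the catalytic subunit of a nuclease that cuts branched DNA, had 21.7, 19.9 and 20.6 TPM in ONS76 FSS libraries, against 23.8, 25.3 and 23.8 TPM in static ONS76, and fell by 0.26 (SE 0.054, adjusted p = 0.000483). In DAOY it had 44.0, 44.9 and 47.2 TPM under FSS, against 48.4, 46.4 and 47.5 TPM in static libraries, which overlap (-0.06, SE 0.050). Without static replicates 1 and 2 the ONS76 call of MUS81 was just lost (adjusted p = 0.052, with 0.000114 to 0.052 over its alternatives). BLM, the helicase that dissolves double junctions, was called in ONS76, at -0.18 (SE 0.066, adjusted p = 0.0411), a call lost in 12 of 23 alternatives. Leaving out any 1 of the 3 ONS76 FSS libraries, static ONS76 replicate 2 or 3, DAOY FSS replicate 3 or static DAOY replicate 1 was enough (adjusted p = 0.0501 to 0.208), as was leaving out static ONS76 replicates 1 and 2 together (0.0533), with 0.0245 to 0.208 over its alternatives. EME1, the partner of MUS81, was barely counted. It had 1, 2 and 2 counts in ONS76 FSS libraries against 7, 5 and 7 in static ONS76, and 13, 13 and 13 counts in DAOY FSS against 7, 5 and 8 in static DAOY. The ratio of its summed counts, FSS over static and scaled to library size, was 0.261 in ONS76 (exact 95% interval 0.0761 to 0.722) and 1.87 in DAOY (1.06 to 3.38), intervals that cover counting error only. Neither change was called by edgeR. With limma on log2(TPM + 0.1) both were (adjusted p = 0.00426 in ONS76 and 0.0157 in DAOY), in opposite directions. Of EME1, 16.4% of exon bases overlap LRRC59 on the other strand, which had 4406 to 11889 counts.

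The test of the difference between the lines, DAOY response minus ONS76 response, called 7 members. FANCG at -0.51 (SE 0.086, adjusted p = 4.94e-05), RAD51AP1 at -0.39 (SE 0.13, 0.032), FANCD2 at -0.31 (SE 0.095, 0.0169), FANCI at -0.26 (SE 0.068, 0.00568) and XRCC2 at -0.24 (SE 0.085, 0.0467) fell more in DAOY. FANCF at 0.33 (SE 0.10, 0.0201) and EME1 at 2.76 (SE 0.90, 0.0279) were more positive in DAOY. These 5 lower and 2 higher of 33 compare with 10.7% lower and 8.34% higher of all tested genes, so the share of members that differed was close to that of the table. FANCG kept its call in all 22 alternatives. FANCI lost it only without static ONS76 replicates 1 and 2 together (adjusted p = 0.0958, with 0.00106 to 0.0958 over its alternatives), and FANCD2 there (0.223) and without static ONS76 replicate 2 (0.0551), with 0.00577 to 0.223. The RAD51AP1 call was lost without any 1 of DAOY FSS replicates 1 and 3, static DAOY replicates 1 and 3, ONS76 FSS replicate 3 and static ONS76 replicate 2 (adjusted p = 0.0559 to 0.155), and without static ONS76 replicates 1 and 2 together (0.0982), with 0.00977 to 0.155 over its alternatives. That of FANCF was lost without DAOY FSS replicate 2, static DAOY replicate 1, ONS76 FSS replicate 1 or 2 or static ONS76 replicate 3 (adjusted p = 0.0528 to 0.0863, with 0.00406 to 0.0863). It was also lost with limma on log2(TPM + 1) (0.0624) and on log2(TPM + 0.1) (0.0742). The XRCC2 call was lost without any 1 library but DAOY FSS replicate 2, ONS76 FSS replicate 3 and static ONS76 replicate 1 (adjusted p = 0.0631 to 0.110), and without static ONS76 replicates 1 and 2 together (0.178), with 0.0212 to 0.178 over its alternatives. EME1 lost its call without any 1 library but DAOY FSS replicate 2, static DAOY replicate 3 and static ONS76 replicate 2 (adjusted p = 0.0532 to 0.0877), and without static ONS76 replicates 1 and 2 together (0.104), with 0.00203 to 0.104 over its alternatives. With all libraries kept, XRCC2 also lost its call with upper-quartile factors (edgeR adjusted p = 0.0632), library totals (0.0593), no filter (0.0944) and the replicate block (0.0564). EME1 also lost its call with no filter (0.0931). FANCB at 0.31 (SE 0.13, adjusted p = 0.0824), NBN at -0.17 (SE 0.066, 0.0698) and MUS81 at 0.20 (SE 0.074, 0.0627) missed the threshold. The difference was called in 2 alternatives for each of them: FANCB with a mean of at least 5 CPM (0.0465) and without DAOY FSS replicate 3 (0.0405), NBN with DESeq2 (0.044) and without DAOY FSS replicate 2 (0.0129), and MUS81 with upper-quartile factors (0.0381) and a mean of at least 5 CPM (0.0199). Over all alternatives the adjusted p ran from 0.0405 to 0.197 in FANCB, 0.0129 to 0.244 in NBN and 0.0199 to 0.313 in MUS81. FANCE, at -0.27 (SE 0.12, adjusted p = 0.116), was likewise called without DAOY FSS replicate 1 (0.0463) or static ONS76 replicate 3 (0.0317).

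Between the lines in static culture, members differed about as often as genes of the whole table. Static ONS76 minus static DAOY gave 12 members higher (36.4%) and 17 lower (51.5%) of 33, against 37.9% and 43.2% of all tested genes, and a median of -0.14 against -0.10 over all genes. With library totals alone or limma on TPM at either pseudocount 6 members were higher, and the median ran to -0.357 with upper-quartile factors, -0.431 with library totals and -0.540 with limma on log2(TPM + 0.1). RAD51B (ENSG00000182185, chromosome 14, 67819779 to 68730218) differed most, at 6.91, 7.08 and 7.97 TPM in static ONS76 against 68.4, 74.7 and 72.3 TPM in static DAOY (log2 -2.88, SE 0.072, adjusted p = 4.76e-27). RAD51AP1 followed at -2.02 (SE 0.085) from the static values given above, and FANCM at -1.05 (SE 0.084), with 5.27, 5.24 and 4.87 TPM in static ONS76 against 13.5, 14.8 and 14.2 TPM in static DAOY. None of these groups overlap.

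Higher in static ONS76 by a log2 of 1 or more were ATRIP at 1.40 (SE 0.080), RAD51C at 1.35 (SE 0.075), ATR at 1.17 (SE 0.053) and RBBP8 at 1.09 (SE 0.047). RAD51C had 26.0, 26.3 and 28.5 TPM in static ONS76 against 12.7, 15.1 and 14.6 TPM in static DAOY, and RBBP8 97.9, 103 and 98.9 TPM against 63.4, 60.8 and 64.3 TPM. ATR and ATRIP thus stood above DAOY by their static values given above, while CHEK1, at 18.3 ± 0.818 TPM in static ONS76 against 41.3 ± 1.56 TPM in static DAOY (SD, n = 3 each), and TOPBP1, at 59.1 ± 1.98 TPM against 105, 113 and 111 TPM, stood below it. Scaling matters between the lines. The main scaling factors were 0.891 to 0.918 in ONS76 and 1.09 to 1.12 in DAOY libraries, and the median of all genes was -0.10 with them, -0.16 with RLE factors, -0.32 with upper-quartile factors and -0.40 with library totals alone. FANCB, FANCF and EME1 turned from higher to lower in ONS76 with upper-quartile factors, library totals or TPM values, and BRCA1, PALB2, FANCG and RAD54B with TPM values. With library totals the higher calls of BRCA1 (adjusted p = 0.934), PALB2 (0.319), FANCG (0.172) and FANCA (0.0838) were lost. RAD54L and XRCC3, uncalled in the main fit, were called lower in ONS76 in 5 and 4 alternatives. With library totals they were at -0.34 (adjusted p = 0.00306) and -0.43 (0.00808). The calls of FANCB, FANCE, FANCF and MRE11 between the static lines were each lost without some single library, with adjusted p of at most 0.141 in those fits. Without static ONS76 replicates 1 and 2 together, those of FANCB (0.106), FANCE (0.539) and BLM (0.0536) were lost. The 7 members with a log2 of 1 or more in size kept their direction and call under all 22 alternatives.

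**Figure D3:**
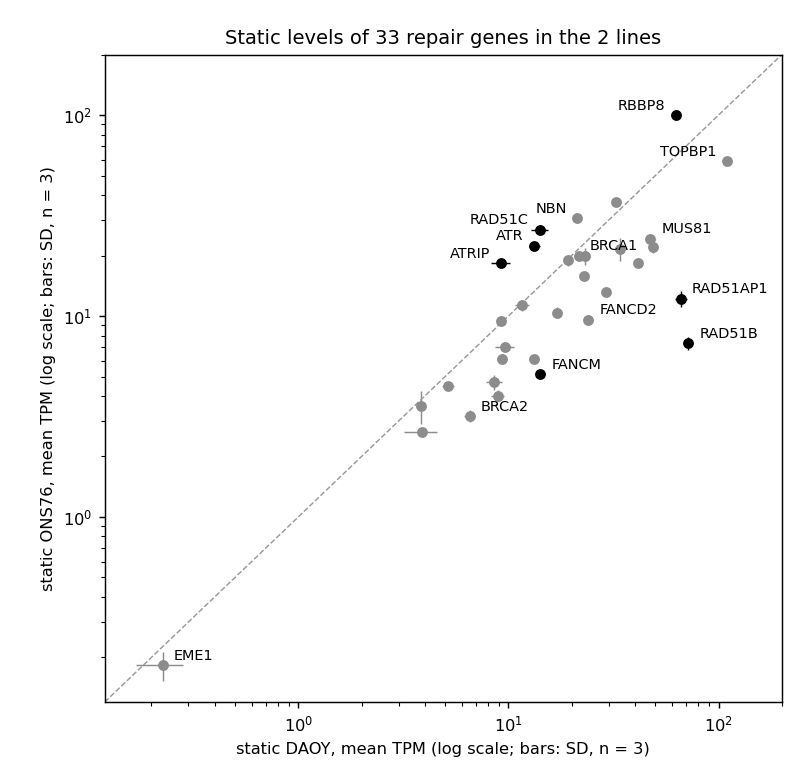
Mean TPM of the 33 tested members in static ONS76 (y axis) against static DAOY (x axis), both on log scales, with SD over 3 libraries as bars, the dashed line at equal TPM, and black points for the 7 members called with an absolute log2 difference of 1 or more. RAD51B (7.32 TPM in ONS76 against 71.8 in DAOY) and RAD51AP1 (12.2 against 66.2) lie farthest below the line.

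Levels per transcript length spanned a wide range within a group. In static ONS76 the lowest member above EME1 was XRCC3 at 2.65 TPM and the highest RBBP8 at 100.0 TPM, with a median of 12.2 TPM. In static DAOY they ran from RAD54B at 3.83 TPM to TOPBP1, with a median of 17.0 TPM. Under FSS the medians were 9.70 TPM in ONS76 and 15.2 TPM in DAOY. Because TPM is a share of all transcripts, these levels carry the scaling caveat between lines. Within a line the median of all genes moved by at most 0.03 between scalings of the counts. Upper-quartile factors still ended the calls of FANCL in DAOY (edgeR adjusted p = 0.0609) and BLM in ONS76 (0.0579).

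Other genes of recombination and the Fanconi pathway, a list of 44 with 40 tested, were also called lower more often than higher. In ONS76 2 rose and 17 fell (median -0.17), and in DAOY 4 rose and 18 fell (median -0.16). The shares lower were 42.5% and 45.0%, against 13.9% and 20.1% of all tested genes. DNA2, a trimming nuclease, fell by 0.58 (SE 0.0663) in ONS76 and by 0.83 (SE 0.0693) in DAOY, and RMI2, a partner of BLM, by 0.78 (SE 0.11) in ONS76. FAAP100, a core complex partner of FANCB and FANCL, fell by 0.49 (SE 0.0742) in ONS76, and the single-strand binding protein RPA1 and the BRCA2 partner SEM1 fell in DAOY, at -0.29 (SE 0.0412) and -0.32 (SE 0.0517). FAN1, a nuclease that acts on crosslinks, rose in both lines, by 0.38 (SE 0.0574) and 0.32 (SE 0.0529). BABAM1, BRCC3, GEN1 and CENPS of this list had 0 counts throughout.

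Genes of other repair routes and checkpoints were also called lower more often than higher, in each list and in both lines. The shares lower ran from 17.6% (base excision repair) to 37.5% (nucleotide excision repair) in ONS76, against 13.9% of all tested genes. In DAOY they ran from 33.3% (other checkpoint genes) to 56.2% (nucleotide excision repair), against 20.1%. Non-homologous end joining, with 14 tested, had 1 higher and 4 lower in ONS76 and 2 and 6 in DAOY. TP53BP1, which shields ends from trimming, rose by 0.51 (SE 0.0427) in ONS76, at 26.3 TPM under FSS against 18.1 TPM in static culture, and by 0.71 (SE 0.0417) in DAOY, at 44.1 against 27.0 TPM. The joining ligase LIG4 rose by 0.53 (SE 0.0654) in DAOY, and the end-binding XRCC6 and the shieldin subunit MAD2L2 fell in both lines, at -0.21 (SE 0.0351) and -0.25 (SE 0.0560) in ONS76 and at -0.25 (SE 0.0350) and -0.47 (SE 0.0620) in DAOY. Of 15 other checkpoint genes, 1 rose and 3 fell in ONS76, and 1 rose and 5 fell in DAOY. The ATR mediator CLSPN fell by 0.59 (SE 0.0706) and by 0.54 (SE 0.0602), the ATR activator ETAA1 by 0.36 (SE 0.0632) and by 0.34 (SE 0.0711), and the fork protection gene TIMELESS by 0.56 (SE 0.0403) in DAOY. The risers were the ubiquitin ligase gene RNF8 in ONS76, at 0.21 (SE 0.0560), and the kinase gene WEE1 in DAOY, at 0.29 (SE 0.0476).

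Nucleotide excision repair had 0 higher and 6 lower of 16 tested genes in ONS76 and 2 and 9 in DAOY, led by the damage sensor DDB2, at -0.41 (SE 0.0603) and -0.86 (SE 0.0669). Mismatch repair had 0 higher and 2 lower of 7 in ONS76 and 0 and 3 in DAOY, with PMS2 at -0.16 (SE 0.0541) and -0.34 (SE 0.0548). Base excision repair had 2 higher and 3 lower of 17 in ONS76 and 2 and 7 in DAOY. PARP1 and PARP2, which sense strand breaks, fell by 0.41 (SE 0.0387) and by 0.47 (SE 0.0540) in DAOY. The p53 target list shares XPC and DDB2 with the nucleotide excision repair one. Among its 17 tested genes, 4 rose and 3 fell in ONS76 and 3 rose and 8 fell in DAOY. The cyclin gene CCNG1 was first by p in both lines, at -0.50 (SE 0.0426) and -0.60 (SE 0.0422). CDKN1A, the cell-cycle inhibitor, followed in ONS76 at 0.54 (SE 0.0490), and DDB2, RRM2B and FDXR in DAOY, all lower.

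Replication and mitosis genes fell as well, and none of them rose. In replication, 0 rose and 22 of 26 fell in ONS76 (median -0.37) and 0 rose and 24 fell in DAOY (median -0.55). RRM2, the nucleotide-supplying reductase subunit, was at 35.8 TPM in ONS76 FSS against 59.7 TPM in static ONS76 (-0.76, SE 0.0470) and at 78.6 against 155 TPM in DAOY (-0.98, SE 0.0442), and the ligase LIG1 fell by 1.52 (SE 0.0675) in DAOY. In mitosis, 0 rose and 21 of 21 fell in ONS76 (median -0.47) and 0 rose and 15 fell in DAOY (median -0.43), with the topoisomerase TOP2A at -0.65 (SE 0.0365) in ONS76 and the proliferation marker MKI67 at -0.70 (SE 0.0416) in DAOY. Of 16 tested E2F and DREAM factors, the transcription factors of such genes, 2 rose and 8 fell in ONS76, and 2 rose and 10 fell in DAOY. In that list, E2F1 and E2F2 are also counted among the replication genes, and FOXM1 among the mitosis genes. E2F1 fell by 0.76 (SE 0.0634) and by 0.93 (SE 0.0647) and MYBL2 by 0.89 (SE 0.0491) and by 0.80 (SE 0.0481). The part of fewer cycling cells in the members' fall was not tested.

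**Figure D4:**
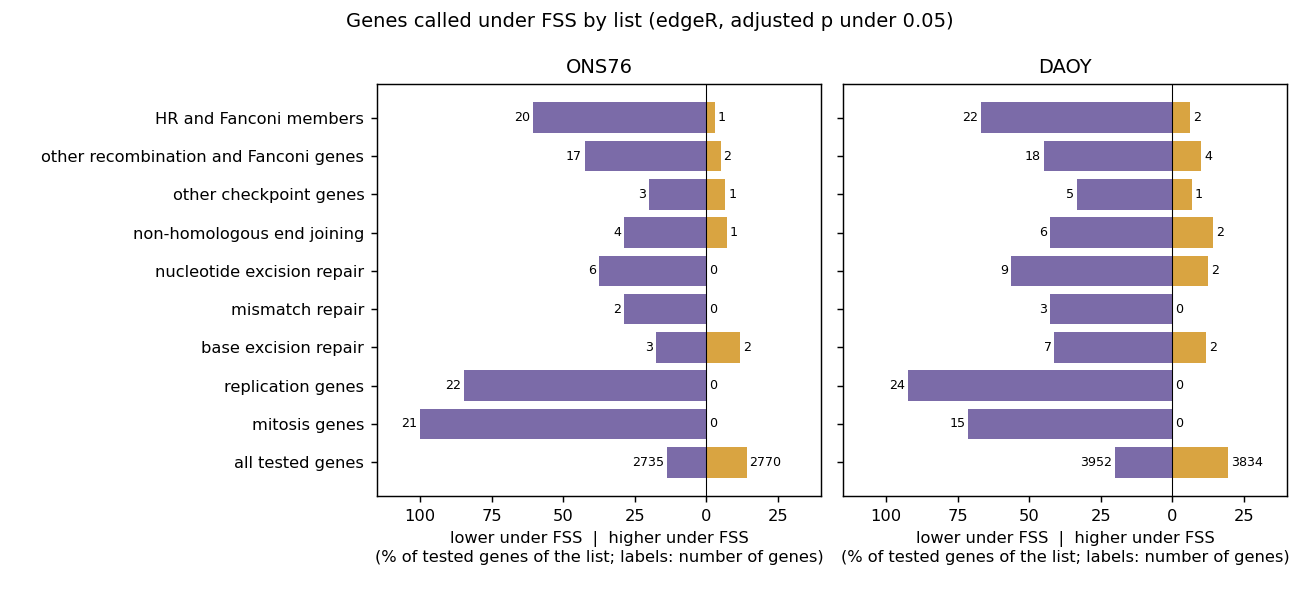
Share of tested genes called lower (purple, left) and higher (gold, right) under FSS in ONS76 and DAOY for the members, 8 other lists and all tested genes, with the number of genes at each bar. Members are lower in 20 and 22 cases, replication genes in 22 and 24 and mitosis genes in 21 and 15, while all tested genes split almost evenly.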

How the data were processed

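Poly(A) RNA of 12 libraries was sequenced by the authors as 100-bp paired-end reads, per the labels' protocols. The authors deposited raw counts per gene and TPM values, which are counts divided by gene length and scaled to the same sum in every library. HISAT2 2.2.1, featureCounts and GRCh38 are named in the submitters' processing notes. Its annotation, and how it treated strand and shared bases, is not given in the sources used here. Library depth is given with the results, and intervals on counts cover counting error only.

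Counts were tested with edgeR 4.0.16 (R 4.3.3): filterByExpr, TMM factors, 1 mean per group over all 12 libraries, glmQLFTest two-sided, Benjamini-Hochberg over 19631 genes, threshold 0.05. SE is the log2 change divided by the root of F. Each line gave 1 FSS-minus-static contrast. A further contrast subtracted the ONS76 response from that of DAOY, and the last set static ONS76 against static DAOY. TPM values describe levels. Exon overlaps come from GENCODE release 29 on GRCh38. The procedure was tested on simulated counts. Counts of replicate pairs had 3.73 to 9.22 times the chi-square per degree of freedom of sampling noise, and no library was treated as a repeat. Both ends of that range lie in static ONS76. Replicates 1 and 2 were at 3.73 there, 1 and 3 at 9.22 and 2 and 3 at 7.74. Alternatives used DESeq2 1.42.0, limma 3.58.1 on log2(TPM + 1) and log2(TPM + 0.1), other scalings and filters, a replicate block and left-out libraries.

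The members and gene lists were chosen with earlier results of these data known, so counts over them are descriptions. Values in every library are given for the called members with the 5 largest falls per line, those that rose, those whose responses differ between lines, the member of each role group with the smallest p, and those called between static lines with a log2 difference of 1 or more in size. Up to 4 genes per other list and line are named by smallest p. One gene that this rule names is not reported here.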

Additional observations from a re-analysis of the deposited data

Results flagged for a closer look

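In 7 members the FSS response differed between the lines by a test of the difference itself (edgeR, DAOY response minus ONS76 response). RAD51AP1 differed by -0.39, FANCD2 by -0.31, FANCI by -0.26 and XRCC2 by -0.24 on the log2 scale: each fell in both lines and further in DAOY. FANCG differed by -0.51, with a fall in DAOY and no call in ONS76. FANCF differed by 0.33, with a rise in DAOY and no call in ONS76. EME1 differed by 2.76, on 1 to 2 counts per ONS76 FSS library, and was called in neither line alone. No group of 4 or more libraries exists, so single libraries were not screened.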

How the results depend on the processing

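Of 6098 values computed under alternatives for 270 results, 5726 kept their direction and their side of the threshold (or, for counts and medians, stayed near the main value), 174 lost a call, 38 gained one, 105 moved and 55 turned in sign. The cause was not tested unless named. Fitting each line alone gives no value for contrasts between the lines. Depth limits EME1, at 1 to 13 counts in a library. Why RAD50 and RAD51D are at 0 was not tested.

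Counts of members called lower in ONS76 (20) were 13 with limma on log2(TPM + 1) and 11 without static ONS76 replicates 1 and 2, where fewer samples remain, and 16 to 20 with 1 library left out. The count higher in ONS76 (1, FANCB) was 0 with no filter, with limma at either pseudocount and without those 2 libraries, and 0 to 1 with 1 library left out. For the difference between lines, the count higher (2) was 1 with DESeq2, no filter, limma at either pseudocount and without static ONS76 replicates 1 and 2, and 0 to 2 with 1 library left out; the count lower (5) was 1 without those 2 libraries and 2 to 6 with 1 left out. Higher counts between static lines (12) were 6 with library totals alone and with limma at either pseudocount, and 10 to 12 with 1 library left out. The median of the members was -0.174 in ONS76 with limma on log2(TPM + 1), against -0.245. With 1 library left out it was -0.307 to -0.25 in DAOY (main -0.264), -0.25 to -0.222 in ONS76 and -0.183 to -0.131 between static lines. Between static lines (main -0.137) it was -0.198 with DESeq2 or RLE factors, -0.357 with upper-quartile factors, -0.431 with library totals, -0.396 with a mean of at least 5 CPM, -0.515 with limma at a pseudocount of 1 and -0.540 at 0.1. Promoters with an E2F form numbered 6, and 13 with the shorter form, which was chosen after seeing the sequences.

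The replicate numbers do not pair the libraries: same-numbered FSS and static libraries had correlations of -0.099 to 0.078 over 10645 genes. With the replicate block, the members called were 20 lower and 1 higher in ONS76, 22 and 2 in DAOY, 4 and 2 for the difference and 17 and 12 between static lines, so XRCC2 lost its difference call there.

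No called FSS response of a member turned in sign under these alternatives. Turned values between static lines were, with upper-quartile factors, FANCB -0.01, FANCF -0.03 and EME1 -0.11, with library totals -0.09, -0.11 and -0.19, with limma at a pseudocount of 1 -0.17, -0.22 and -0.05, and at 0.1 -0.20, -0.23 and -0.20. With limma at 1 and at 0.1, BRCA1 was -0.11 and -0.11, PALB2 -0.03 and -0.03, FANCG -0.03 and -0.03 and RAD54B -0.09 and -0.12. The remaining turned values belong to uncalled changes. With 1 library left out, static differences ran from -0.24 to 0.03 in XRCC3, -0.11 to 0.03 in RAD54L and -0.07 to 0.28 in EME1. Under other scalings XRCC3 and RAD54L were called lower in static ONS76, as given above. ONS76 responses ran from -0.06 to 0.01 in RAD51C, -0.08 to 0.03 in XRCC3, -0.04 to 0.19 in RAD54B, -0.12 to 0.03 in FANCF, -0.14 to 0.08 in FANCM and -0.0 to 0.03 in ATR, and DAOY responses from -0.06 to 0.12 in RAD51C and -0.1 to 0.01 in ATR. Differences between the responses ran from -0.03 to 0.15 in RAD51C, -0.03 to 0.1 in BRCA1, -0.01 to 0.09 in BRCA2, -0.01 to 0.09 in FANCL and -0.08 to 0.07 in PALB2. Without static ONS76 replicates 1 and 2, the ONS76 response was -0.06 in RAD54B, 0.02 in FANCM and -0.02 in ATR, and the difference was 0.03 in PALB2 and 0.0 in CHEK1. The difference was -0.02 in BRCA2 with limma at 1, and in PALB2 it was 0.02 with upper-quartile factors or a mean of at least 5 CPM, 0.01 with library totals and 0.0 with no filter.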

Other observations

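Several repair and cell-cycle genes on the lists used for comparison were listed at or near 0 in all 12 libraries, as RAD50 and RAD51D were. CENPS, BABAM1, BRCC3 and GEN1 of recombination, POLL and SHLD3 of end joining, GTF2H4 of excision repair, MBD4 of base excision repair, GINS4 of replication, TP53I3, TP53INP1 and TIGAR among p53 targets and E2F8 and LIN37 among E2F and DREAM factors had 0 counts throughout. ERCC5 reached at most 1 count, NUSAP1 at most 4, MUTYH at most 6 and the flap nuclease FEN1 at most 13 in any library. CFL1, the actin-severing cofilin gene that overlaps MUS81 on the other strand, had 4 to 20 counts. Counts this low in genes of general cell function set a limit on reading any 0 of this table as absence of a transcript.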
